A study of Drosophila melanogaster with 8 samples.

Results

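The Rebers-Riddiford cuticle proteins are the main family of structural proteins in insect cuticle. They were taken here as the 95 of 13989 listed genes whose symbol begins with Cpr and a digit, Ccp84A, Lcp and a digit, Acp65A or Edg. Of the 95 genes, 46 lie on chromosome arm 3L, 26 on 2R, 14 on 3R, 5 on 2L and 4 on X. Edg91 comes in by its name only, since it is known as a glycine-rich cuticle protein of another kind.

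RNA was sequenced from dissected pupal central nervous systems (CNS) of Drosophila melanogaster, about 10 pooled per sample, in 4 groups of 2 replicates. The wild type was Canton S at 36 h and at 72 h after puparium formation (APF). The knockdown genotype was ElavC155GAL4; dStimRNAi/tubulinGAL80ts, in which the elav GAL4 driver expresses an RNAi against dStim in neurons and temperature-sensitive GAL80 holds it off until the temperature is raised. Flies were reared at 25 °C and moved to 29 °C for knockdown. Whether the wild type was moved too is not given in the sources used here. Knockdown CNS were taken at 36 h APF after 24 h of knockdown, and at 72 h APF after the same 24 h and 36 h of recovery. Wild type animals carried none of these transgenes, so knockdown, genetic background and transgenes cannot be told apart. Each group has 1 deposited value per gene, pooled by the authors over its replicates. There is therefore no SD and no test, and every difference below describes these pools.

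Cuticle is an extracellular layer of chitin fibres and protein that epidermal cells secrete to the outside, and tracheal tubes and the lens of each eye facet are lined or capped by it. Proteins of this family carry a conserved domain that binds chitin, and each moult uses its own set of them. In Drosophila, Lcp genes are named for larval cuticle, Acp65Aa for adult cuticle and Edg genes for their dependence on ecdysone, the moulting hormone. In pupae the adult cuticle is laid down in the second part of metamorphosis. Neurons do not lay it down, and a dissected CNS can hold pieces of trachea, eye or epidermis.

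The labelled tissue fitted its markers. All 8 neuronal markers found (brp, Cha, elav, nrv3, para, Syt1, VAChT and VGlut) had an FPKM of at least 1 in every group. FPKM counts sequenced fragments scaled for transcript length and sequencing depth, and is the unit of every level here. Summed over these 8 genes, the level was 1507 in wild type and 1493 in knockdown at 36 h, and 2956 and 4133 at 72 h. The targeted gene Stim had an FPKM of 42.2 in wild type and 33.9 in knockdown at 36 h, and of 38.6 and 31.3 at 72 h. Values across the 2 ages come from tables that were normalized separately, and the median gene fell from 36 h to 72 h by 0.33 on the log2 scale in wild type.

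As a family the cuticle proteins were a small part of the RNA, and that part grew between the ages. Summed over the 95 genes the level came to 617 FPKM in wild type and 415 in knockdown at 36 h, and to 6026 and 4054 at 72 h. That is 0.0976%, 0.0670%, 0.948% and 0.656% of the summed FPKM of all genes, in the same order. At least 1 FPKM was reached by 28 members in wild type and 33 in knockdown at 36 h, against 48 and 43 at 72 h. This is 29.5% and 34.7% of the family at 36 h and 50.5% and 45.3% at 72 h, where between 64.1% and 68.3% of all listed genes reached it.

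A few genes held most of each sum. At 36 h Cpr66D alone made up 60.8% of the family's FPKM in wild type and 31.9% in knockdown. At 72 h Cpr64Ad made up 29.9% and 41.1%, and the 5 highest members together 77.2% and 79.8%.

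Over all 4 groups, 37 members reached an FPKM of at least 5 somewhere and 10 reached 100. Another 20 peaked between 1 and 5. Of the other 38, 31 stayed between 0 and 1 everywhere, the highest being Cpr65Av at 0.973, and 7 were listed at 0 in every group. The larval genes Lcp1, Lcp2, Lcp3 and Lcp4 all belong to the 31, with no value above 0.388. The 7 were Cpr49Ad, Cpr49Af, Cpr65Ax2, Lcp65Aa, Lcp65Ae, Lcp65Ab2 and the row that joins Lcp65Ab1 with Lcp65Ab2.

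Most of the genes are short, with few exons. The longest transcript had a median of 815 nt over the 94 members with a match in the annotation, against 1725 nt over all genes matched. Of these 94, 63 (67.0%) had 2 exons in that transcript, as did 21.0% of all genes matched. Another 8 had 1 exon, 12 had 3 and 11 had more, up to 17 in Cpr47Ef. The longest transcript, 4525 nt, belongs to Cpr76Bd.

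**Figure D1:**
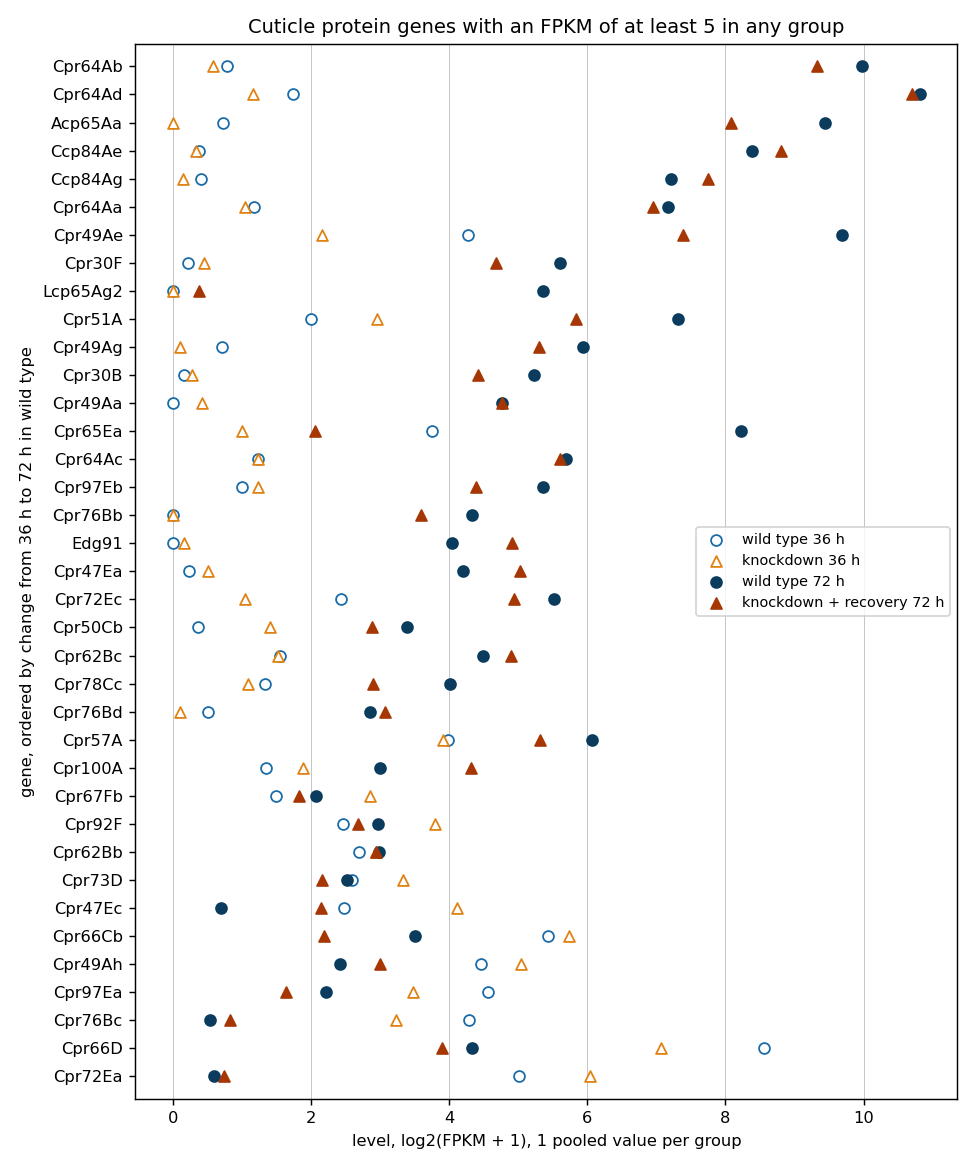
Level of the 37 cuticle protein genes that reached an FPKM of at least 5 in any group, as log2(FPKM + 1) on the x axis, with 1 pooled value per group (open symbols 36 h, filled 72 h, circles wild type, triangles knockdown). Genes are ordered by their change with age in wild type, from Cpr72Ea at the bottom, which fell from 31.3 to 0.514 FPKM, to Cpr64Ab at the top, which rose from 0.717 to 1001.

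Levels differed more between the ages than between the genotypes. In what follows a difference is a log2 ratio of FPKM + 1, a scale that understates changes of low genes, and a gene was kept where either of the 2 groups had at least 1 FPKM. From 36 h to 72 h in wild type, 35 of the 53 members kept were at least 2-fold higher (66.0%), where 14.9% of all 10222 genes kept were. Another 7 were at least 2-fold lower (13.2%, against 21.9% of all genes). In knockdown, 31 of 50 were higher and 13 lower, against 13.8% and 25.4% of 9759 genes. Rescaling every group to the same total takes the 7 to 11, and centring on the median of all genes takes the 13 to 8. The members' median difference was 2.14 in wild type and 1.45 in knockdown, beside -0.33 and -0.38 over all genes kept. Markers of other tissues moved with age too. All 7 muscle markers were at least 2-fold higher at 72 h in both genotypes, with a sum of 105 against 546 in wild type. Of 8 epidermal markers, 6 were at least 2-fold lower in wild type and 7 in knockdown. Their part in the change of the cuticle genes was not tested.

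Most of these changes with age were shared by both genotypes, whose samples are separate. Of 46 members kept in both, 29 were at least 2-fold higher at 72 h in each and 7 were lower in each, and none went in opposite directions by that much. The same held for 10.6% (higher) and 19.8% (lower) of 9524 genes kept in both.

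The 64A cluster, 4 genes within 8.6 kb of 3L (dm3 4207838 to 4216414), rose as a whole. Cpr64Ad (FBgn0035513) had an FPKM of 2.33 in wild type and 1.24 in knockdown at 36 h, and of 1802 and 1665 at 72 h. It ranked 23rd of all genes by FPKM in both groups at 72 h. Its neighbour Cpr64Ab went from 0.717 and 0.495 to 1001 and 643.

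Cpr64Aa stood at 1.26 and 1.06 at 36 h and at 143 and 123 at 72 h. Cpr64Ac reached 50.4 and 47.5 from 1.36 and 1.34. All 4 were far above their 36 h level at 72 h, and in each the genotypes differed by under 2-fold.

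In the 84A cluster on 3R, 7 Ccp84A genes and Edg84A within 20.5 kb, only a part of the genes was measurable. Ccp84Ae (FBgn0004779) was at 0.308 in wild type and 0.261 in knockdown at 36 h, and at 331 and 444 at 72 h. Ccp84Ag followed it, with 0.332 and 0.103 at 36 h and 148 and 214 at 72 h. These were the highest cuticle genes that were higher in the knockdown pool at 72 h, by 0.42 and 0.53 on the log2 scale.

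Between and beside them, Ccp84Af peaked at 2.43 and Ccp84Ad at 1.48, both in wild type at 72 h. Ccp84Aa, Ccp84Ab and Ccp84Ac never passed 0.133. Ccp84Aa and Ccp84Ab are close copies of each other, so their reads may have been split or lost. Edg84A, a target of the nuclear receptor ftz-f1 in Drosophila prepupae, was low throughout, with 0.510 and 1.74 at 36 h and 0.780 and 0.192 at 72 h.

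The 65A cluster is the largest, with 17 rows within 31.2 kb of 3L (dm3 6123485 to 6154689). None of the 17 reached 1 FPKM at 36 h, and 5 did in wild type at 72 h. After recovery only Acp65Aa and Lcp65Ac did. Acp65Aa (FBgn0020765), the adult cuticle gene of the cluster, was listed at 0.653 in wild type and at 0 in knockdown at 36 h. At 72 h it stood at 693 and 269. In wild type Lcp65Ag2 came next at 72 h, with 40.0 against 0.300 after recovery. It was followed there by Lcp65Ac with 3.74 and 2.21, and Lcp65Ag1 with 3.40 and 0.130. Cpr65Az reached 1.62 and 0.975. Acp65Aa alone thus held nearly the whole signal of a cluster whose other genes are mostly larval by name.

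The 49A cluster on 2R holds genes with opposite age patterns side by side. Cpr49Ae was the highest, at 18.3 in wild type and 3.47 in knockdown at 36 h, and 823 and 165 at 72 h. Cpr49Ag rose from 0.639 and 0.0798 to 60.2 and 38.4, and Cpr49Aa from 0 and 0.338 to 26.1 and 26.3.

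Cpr49Ah went the other way, from 21.1 and 31.9 at 36 h to 4.34 and 7.0 at 72 h. Cpr49Ac stayed within 1.92 to 2.90 in all groups. The 8 genes lie within 38.5 kb.

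Single genes elsewhere rose as well. Cpr30F went from 0.160 and 0.362 to 47.6 and 24.6, and Cpr30B from 0.123 and 0.209 to 36.4 and 20.4. Cpr97Eb stood at 1.00 and 1.35 at 36 h and 40.1 and 20.0 at 72 h, while its neighbour Cpr97Ea fell. Cpr76Bb was listed at 0 in both groups at 36 h and reached 19.1 and 11. Edg91 went from 0 and 0.115 to 15.5 and 29.1.

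Cpr47Ea reached 17.4 and 31.5 from 0.182 and 0.429, and Cpr62Bc 21.5 and 28.9 from 1.95 and 1.88. Cpr57A went from 14.8 and 14.0 to 66.2 and 38.8. CuffDiff marked Cpr57A as low data, and its locus overlaps Obp57d.

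**Figure D2:**
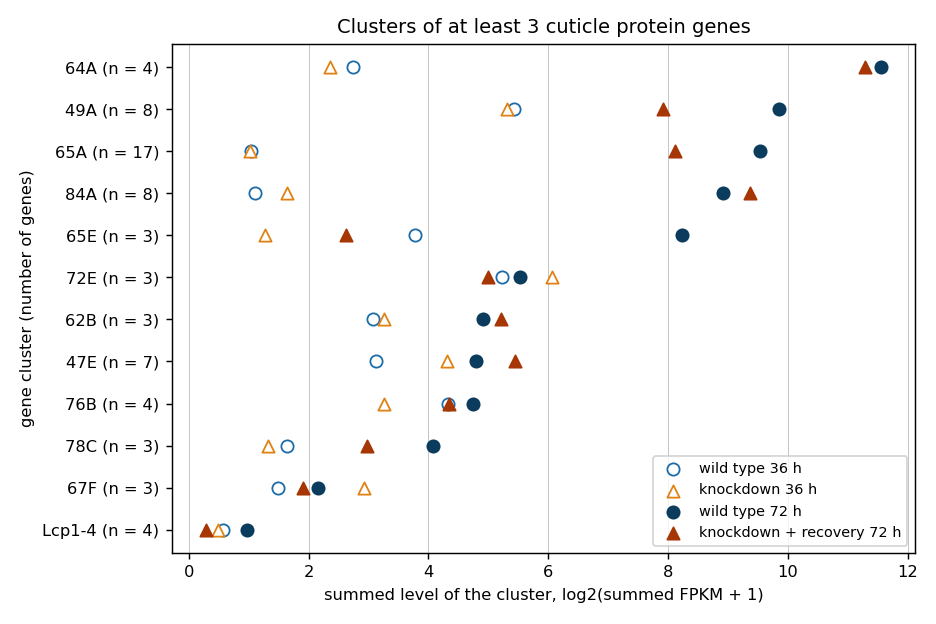
Summed level of each cluster of at least 3 genes (named by the chromosome band in the gene names), as log2(summed FPKM + 1) on the x axis, with 1 pooled value per group. The 64A cluster rose most, from a summed FPKM of 5.67 to 2997 in wild type, and the 65E cluster shows the widest gap between genotypes at 72 h, 299 against 5.13.

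The 7 genes that were lower at 72 h in both genotypes were Cpr66D, Cpr72Ea, Cpr66Cb, Cpr49Ah, Cpr97Ea, Cpr76Bc and Cpr47Ec. Cpr66D (FBgn0052029) is, with Cpr72Ec, drosocrystallin and retinin, one of the main proteins of the Drosophila corneal lens. It was the highest member at 36 h, at 375 in wild type and 133 in knockdown, and stood at 19.0 and 13.8 at 72 h. Cpr72Ea fell from 31.3 and 64.8 to 0.514 and 0.678.

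Cpr66Cb went from 42.3 and 52.4 to 10.3 and 3.56, and Cpr97Ea from 22.6 and 10.2 to 3.65 and 2.13. Cpr76Bc fell from 18.6 and 8.41 to 0.457 and 0.779. All of these were well above 1 FPKM in both pools at 36 h.

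The lens genes did not share an age pattern. Cpr72Ec rose from 4.42 in wild type and 1.07 in knockdown at 36 h to 44.7 and 29.8 at 72 h, while Cpr66D fell. Drosocrystallin, listed as Cry and no member of the family list, rose from 2.86 and 5.54 to 124 and 72.2. The retinin gene was low in each group, its highest value being 1.22 in knockdown at 36 h. These last 2 genes were added after the values of Cpr66D and Cpr72Ec were seen.

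Some members kept a low level at both ages. Cpr62Bb had 5.48 and 6.66 at 36 h and 6.95 and 6.70 at 72 h. Cpr67B lay between 2.07 and 2.74 in all groups. Cpr73D lay between 3.47 and 9.04, and fell from the higher to the lower of these in the knockdown genotype. Other members that were low at 36 h rose with age. Cpr50Cb went from 0.292 and 1.65 to 9.50 and 6.42, and Cpr76Bd from 0.428 and 0.0746 to 6.22 and 7.44. Cpr78Cc rose from 1.54 and 1.12 to 15.2 and 6.42.

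The gene lists around cuticle formation moved in their own ways with age. Of 11 chitin synthesis and tanning genes found, 4 were at least 2-fold higher at 72 h in wild type and 3 lower. The higher ones were the tanning enzymes Ddc, ple, e and b, Ddc from an FPKM of 10.2 to 263. The lower ones were the chitin synthase gene kkv, from 35.3 to 4.09, and its partners knk and rtv. This list shares kkv, knk and y with the epidermal markers above, so the 2 lists are not separate observations. Of 12 ecdysone response genes, 1 was higher and 7 lower in wild type, and 1 higher and 4 lower in knockdown. The higher one was ftz-f1, from 1.32 to 66.8 in wild type and from 1.37 to 106 in knockdown. Blimp-1, a repressor of ftz-f1 in Drosophila, went from 63.5 to 1.15 in wild type. Ddc, ple, e and b also serve amine metabolism in the nervous system.

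Knockdown and wild type differed at 36 h in a larger share of this family than of all genes. Of 34 members kept, 6 were at least 2-fold higher in knockdown (17.6%) and 6 at least 2-fold lower (17.6%). The corresponding shares of 9563 genes kept were 1.88% and 2.73%. The members' median difference was 0.24 and that of all genes about 0. With every group rescaled to the same total the members' median was 0.0076, so its distance from that of all genes depended on the scaling. Low levels carry more counting noise. Over every gene above 0 in wild type at 36 h, kept or not, the median level was 0.889 for members and 13.1 for all genes. How much of the larger share comes from that was not tested.

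The 6 lower genes were Cpr65Ea, Cpr49Ae, Cpr66D, Cpr72Ec, Cpr97Ea and Cpr76Bc. Cpr65Ea (FBgn0035735, 3L, dm3 7079156 to 7079706) was at 12.4 FPKM in wild type and 1.01 in knockdown, a difference of -2.74. Cpr49Ae (FBgn0033728, 2R, dm3 8289720 to 8292619) differed by -2.11, from 18.3 to 3.47. For Cpr66D the difference was -1.49 (375 against 133), and for Cpr72Ec -1.38 (4.42 against 1.07).

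Cpr97Ea differed by -1.08 and Cpr76Bc by -1.06. The drop in the family's sum at 36 h rested on Cpr66D. With it the ratio of knockdown to wild type was 0.672, and without it 1.17, from summed FPKM of 242 and 283.

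The 6 higher genes were Cpr47Ec, Lcp9, Cpr67Fb, Cpr92F, Cpr50Cb and Cpr72Ea. Cpr47Ec (FBgn0033600, 2R) was at 4.59 in wild type and 16.4 in knockdown, a difference of 1.64. Cpr67Fb stood at 1.82 and 6.21 (1.35 on the log2 scale) and Cpr92F at 4.54 and 12.9 (1.33). Cpr72Ea, the highest of them, was at 31.3 and 64.8, a difference of 1.02.

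Cpr50Cb was at 0.292 and 1.65. Lcp9 was listed at 0 in wild type and 1.64 in knockdown, and at 0 in both groups at 72 h. CuffDiff left Lcp9 untested for lack of alignments. Cpr72Ea and Cpr72Ec, of the same small cluster, thus went in opposite directions.

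Markers of other tissues moved beside the lower genes at 36 h. Of 6 genes listed as tracheal markers, 4 reached 1 FPKM in each group, and 2 of these were at least 2-fold lower in knockdown. They were the chitin deacetylases verm, 41.0 against 10.7, and serp, 19.1 against 3.57. The tracheal transcription factor trh was level, at 6.30 and 6.60. So was bnl, another gene of the list, at 7.18 and 6.94. Both btl (0.421 and 0.487) and dys (0.302 and 0.304) stayed below 1 FPKM. Summed over the list, the level was 74.3 in wild type and 28.6 in knockdown at 36 h, a drop that lay in verm and serp. At 72 h the sum was 63.2 and 55.0.

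Gasp, a chitin-binding protein of the tracheal lining, was at 121 and 40.6 at 36 h and at 266 and 172 at 72 h. Of 7 muscle markers, 5 reached 1 FPKM and 4 of those were at least 2-fold lower in knockdown at 36 h, with a sum of 105 against 43.4. At 72 h none of the 7 was at least 2-fold lower in the knockdown genotype. Act88F (23 against 147) and TpnC4 (5.87 against 21.3) were at least 2-fold higher, and fln and Mhc were higher by less. Lower by less than 2-fold were up (166 against 92.5), wupA (105 against 70.4) and Mlc2 (166 against 158). The muscle sum at 72 h was 546 against 608. Of 8 epidermal markers 7 reached 1 FPKM, and 1 of them, pio, was higher in knockdown, at 45.7 against 20.6. The epidermal sum was 109 against 134 at 36 h and 20.5 against 16.5 at 72 h. Neither the 6 glial, the 6 fat body nor the 4 hemocyte markers found had a member at least 2-fold apart between genotypes at either age. The nearest was the glial gene wrapper at 36 h, at 28.4 in wild type and 56.5 in knockdown (0.97 on the log2 scale). Only 2 of the hemocyte markers were kept at each age. At 72 h the median difference was 0.28 for the glial, -0.31 for the fat body and 0.04 for the hemocyte markers kept. No marker found was listed at 0 in all groups. The part of these tissues in the cuticle values was not tested, and in whole tissue fewer cells and less RNA per cell cannot be told apart.

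**Figure D3:**
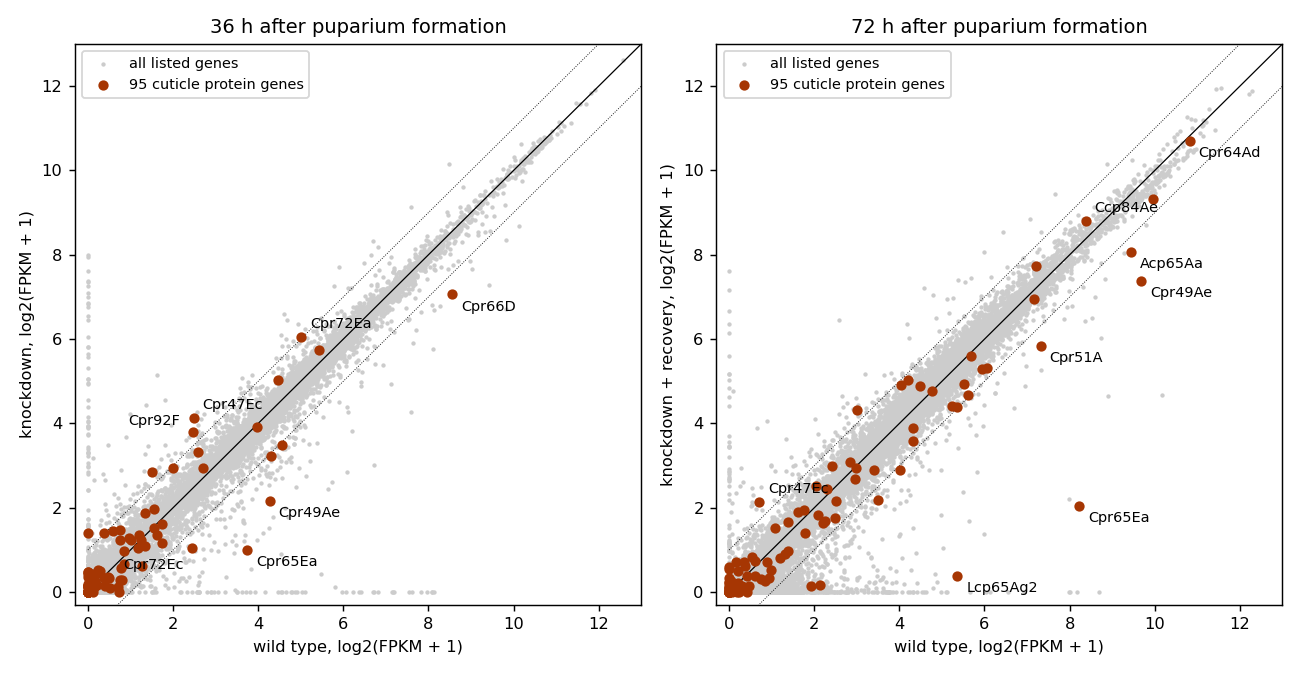
Knockdown against wild type at 36 h (left) and at 72 h (right), with both axes log2(FPKM + 1), each point 1 gene and 1 pooled value per group, the 95 cuticle protein genes in brown over all listed genes in grey. The solid line marks equal levels and dotted lines a 2-fold difference, with 6 members above and 6 below them at 36 h, and 2 above and 9 below at 72 h among those kept.

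At 72 h, after the interval that the labels call recovery, the differences leaned to lower levels. Stim itself stood at 0.803 of its wild type level at 36 h and at 0.809 at 72 h in these pools. The paper, using quantitative PCR, reports reduced dStim RNA at 36 h and its recovery at 72 h. Single pooled values of separate genotypes cannot decide whether Stim had recovered. Of 49 members kept, 9 were at least 2-fold lower after recovery (18.4%) and 2 higher (4.08%). Of 9752 genes kept, 6.31% were lower and 1.71% higher. The members' median difference was -0.40, with 33 below 0 and 16 above, and the median over all genes was -0.02.

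Cpr65Ea had the largest difference, at 298 in wild type and 3.15 after recovery, or -6.17 on the log2 scale. Only 6 of the 9752 genes kept had a lower value. Its neighbours were too low to be compared with it, Cpr65Eb at 0.0932 in both groups and Cpr65Ec at 1.11 and 1.89. Lcp65Ag2 (FBgn0020637, 3L, dm3 6126089 to 6126700) followed, at 40.0 and 0.300, a difference of -4.98. Lcp65Ag1, a close copy of Lcp65Ag2 next to it, differed by -1.96, so the split of reads between these genes is uncertain. Lcp65Ag3 was listed at 0 in both groups.

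Cpr49Ae was at 823 in wild type and 165 after recovery, a difference of -2.31. Cpr49Ab, in the same cluster, was at 2.82 and 0.10 (-1.79), whereas Cpr49Aa beside it was level at 26.1 and 26.3. Acp65Aa differed by -1.36, Cpr66Cb by -1.32 and Cpr78Cc by -1.12.

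Cpr51A was at 159 and 56.2, a difference of -1.48. Its locus overlaps CG30197, which stood at 23.6 and 96.0 at 36 h and at 408 and 485 at 72 h. Without strand information the reads of the overlap cannot be told apart. The 2 higher genes were Cpr47Ec, at 0.628 and 3.40 (1.44), and Cpr100A, at 6.99 and 18.8 (1.31).

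Other genes tied to cuticle were read against the shares of all genes just given for each age. Of the 11 chitin synthesis and tanning genes and the 12 ecdysone response genes, 0 were at least 2-fold apart between genotypes at 36 h or at 72 h. Few genes in lists of this size would be, given those shares. The widest difference was that of kkv at 72 h, at 4.09 in wild type and 1.59 after recovery. On the log2(FPKM + 1) scale it was -0.97, just short of 2-fold. Next came b at 72 h, in the other direction, at 19.8 and 37.9 (0.90). Of 12 further cuticle protein genes that the name rule leaves out, 6 were kept at 36 h, with 1 higher (Acp1) and 2 lower (Gasp and obst-E). At 72 h 7 were kept, with 0 higher and 2 lower (obst-E and obst-A).

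The lower sum at 72 h was not the work of 1 gene. The ratio of the family's summed FPKM, recovery over wild type, was 0.673 with all members and 0.792 without Cpr49Ae and Cpr65Ea. Without Cpr64Ad and Cpr64Ab, the pair with the most signal, it was 0.542.

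**Figure D4:**
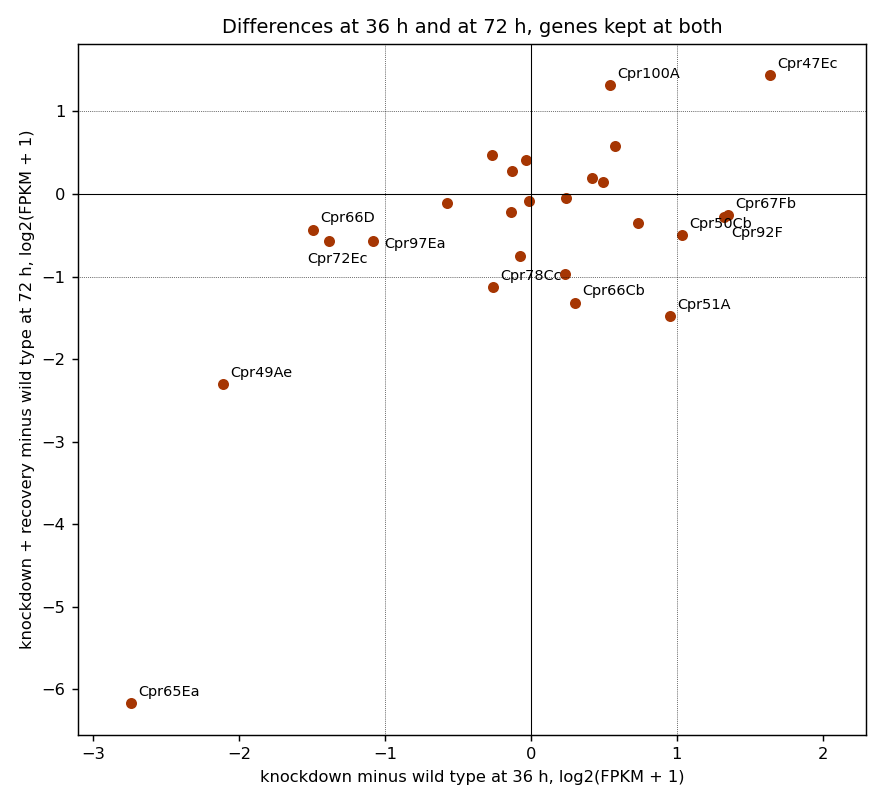
Difference between knockdown and wild type at 36 h (x axis) and at 72 h (y axis), both in log2(FPKM + 1), for the 26 cuticle protein genes with at least 1 FPKM in a group at each age. Cpr65Ea (-2.74 and -6.17) and Cpr49Ae (-2.11 and -2.31) lie lower left and Cpr47Ec (1.64 and 1.44) upper right, while most others gather within 1 unit of 0 on at least 1 axis.

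The comparisons at the 2 ages use separate samples, so the genes that differed at both could be read side by side. Of 26 members kept at both ages, 2 were at least 2-fold lower at each, Cpr65Ea and Cpr49Ae, and 1 was at least 2-fold higher at each, Cpr47Ec. Of 8858 genes kept at both, 0.745% were lower and 0.395% higher at each. Direction alone was the same for 15 of the 26 members (57.7%) and for 63.9% of all genes.

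Cpr49Ae was 5.27-fold lower in knockdown at 36 h and 4.97-fold lower at 72 h, at levels that differed 44.9-fold between the ages in wild type. Cpr65Ea went from 12.3-fold to 94.5-fold lower. In wild type it rose 23.9-fold with age, and in the knockdown genotype 3.12-fold. Cpr47Ec was 3.57-fold higher in knockdown at 36 h and 5.42-fold higher at 72 h, and fell with age in both genotypes.

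Other members did not keep a 2-fold difference in 1 direction. Cpr66D went from -1.49 to -0.43, Cpr72Ec from -1.38 to -0.57 and Cpr97Ea from -1.08 to -0.57. Of the 26 members kept at both ages, 8 went from higher to lower in sign and 3 from lower to higher. Those that turned with at least 2-fold at 1 age were Cpr67Fb (1.35 and -0.26), Cpr92F (1.33 and -0.28), Cpr50Cb (1.03 and -0.50), Cpr66Cb (0.30 and -1.32) and Cpr51A (0.96 and -1.48). Cpr51A was the widest of these. In FPKM without the added 1 it was 2.25-fold higher in knockdown at 36 h and 2.82-fold lower at 72 h. On the log2(FPKM + 1) scale no member turned with at least 2-fold on both sides.

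Coverage differed widely among these genes. In the authors' separate count of reads per gene at 36 h, 27 of the 95 were listed, against 10107 of all 13989 genes. Their average ran from a log2 CPM (read counts scaled to library size, on a log2 scale) of 0.27 for Cpr97Eb to 7.95 for Cpr66D, with a median of 1.38. Cpr49Ae had 3.47, Cpr47Ec 1.37 and Cpr65Ea 1.20. CuffDiff tested 33 members at 36 h and 48 at 72 h and left most others for lack of alignments. The same count over all genes was not made.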

How the data were processed

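The authors aligned reads to dm3 (TopHat2 2.0.11 per the labels) and, with Cuffdiff 2.2.0 and geometric normalization, deposited a single FPKM value for each gene in each group. It pools 2 replicates, and each age had a run of its own. The authors also counted reads per gene and deposited average log2 CPM from edgeR, of which the 36 h table was used. The 72 h table was not used, because its values differed from those at 36 h by a median of 0.000853, while log2(FPKM + 1) of the same 10107 genes differed by 0.663. Fold changes, test statistics and p-values of the authors' own comparisons, held by the same tables, were not used. The tables do not give the depth of each sample, so no interval is given, and no new test could be made.

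Differences are log2((FPKM + 1)/(FPKM + 1)), over genes with at least 1 FPKM in either group, and 2-fold was the limit for counts. Named genes have an FPKM of at least 5 in a group, or are among the 10 largest differences at an age or the 10 highest or lowest changes with age in wild type, and other names follow from clusters and lists. Members and lists were chosen with earlier results of these data known. Names, transcript lengths and exons come from Ensembl release 115, with 94 of 95 symbols matched, and coordinates from the dm3 loci of the tables, whose starts count from 0 and were raised by 1. The library kit does not mark strand. Alternatives covered pseudocount, minimum, fold, scaling and rows left out. Python 3.11.15, pandas 2.3.3, NumPy 2.4.6 and matplotlib 3.10.9 were used. The counting code was checked on a copy of the wild type values at 36 h with known fold changes put in. That copy held no noise and changed no low gene, so it says nothing on how reliable the counts are for low members.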

Additional observations from a re-analysis of the deposited data

How the results depend on the processing

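Of 108 alternatives over 20 results, 86 stayed within 1.5 times of the value given (for medians, within the log2 of 1.5) and 22 moved further, and no median changed sign. The members' median at 36 h, 0.24, was 0.0076 with each group rescaled. Shares of all genes were computed for the main setting only, so the member counts under alternatives have none beside them. With a fold of at least 4, knockdown at 36 h kept 0 higher and 2 lower members, recovery at 72 h 0 and 3, and 5 members fell with age in knockdown. With at least 5 FPKM in either group, 1 member was higher at 72 h after recovery. Rescaling each group to sum to 1000000 gave 11 members lower with age in wild type, and centring on all genes gave 8 in knockdown. The median change with age was 3.75 in wild type and 2.18 in knockdown with a pseudocount of 0.1, and 4.04 and 3.16 with at least 5 FPKM. A minimum of 5 FPKM left 11 and 13 members at 36 h and 30 and 28 at 72 h. The summed level rescaled was 976 (wild type) and 670.1 (knockdown) at 36 h, and 9484 and 6561 at 72 h. Without the highest member it was 242 in wild type at 36 h and 2388 after recovery at 72 h. No paired analysis was possible because the tables hold no value per replicate, and no replicate could be left out for the same reason. Members below 1 FPKM are limited by depth, which the tables do not give per sample.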
